A study of Mus musculus with 7 samples.

Results

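The core circadian clock genes Arntl, Clock, Per1, Per2, Per3, Cry1, Cry2, Nr1d1, Nr1d2 and Dbp were followed by RNA sequencing in the mouse uterus at estrus and diestrus. They were taken by gene symbol from the deposited expression table, and all 10 were among its 31274 rows. Estrus is the stage of ovulation and mating readiness, after estradiol has peaked. At diestrus the ovary's corpora lutea secrete progesterone. The estrus group held 3 libraries and the diestrus group 4. All came from unexposed control mice of CD-1, an outbred stock, at 2 months of age. Neither pooling nor separate animals are stated in the labels, so the p-values cover only the spread among these libraries, part of which may be technical. The hour of collection is not given in the sources used here, and clock genes vary over the day. A difference in hour between the groups and a difference in cycle stage therefore cannot be told apart.

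In the mouse, the proteins CLOCK and BMAL1, the product of Arntl, pair and bind E-box sequences, where they activate the Per, Cry, Nr1d1, Nr1d2 and Dbp genes. The PER and CRY proteins form the negative arm and block this activation, while the products of Nr1d1 and Nr1d2, also called REV-ERB alpha and beta, repress Arntl through ROR elements. DBP carries the rhythm to output genes through D-box sequences. In many peripheral tissues of the mouse Arntl is high at the hours when Nr1d1 and Dbp are low.

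The promoter windows that hold these sequence elements are shown because CLOCK and BMAL1, the REV-ERB proteins and DBP bind such letters. RefSeq windows of GRCm38.p6, from 250 bases before to 50 bases after an annotated start, were matched by symbol for 9 of the 10 members, all but Per2, with 13 windows in all. Both strands were searched for the E-box CACGTG, the D-box TTANGTAA and the ROR element core ANTNGGTCA. The E-box was in 7.15% of all 32851 windows, the D-box in 2.32% and the ROR element core in 2.24%. In the 12803 windows of genes tested for expression below, as all members were, these shares were 9.75%, 1.56% and 1.84%. They are shares of windows, and a gene can have several windows. Capitals mark the matches in these sequences, written 5′ to 3′ on the strand of the gene, and no match overlapped another. The windows are chr7:113207261-113207560 on the plus strand for Arntl, chr11:69098699-69098998 on the plus strand for Per1, chr10:85185005-85185304 on the minus strand for Cry1 and chr4:151044616-151044915 on the minus strand for Per3.
Arntl: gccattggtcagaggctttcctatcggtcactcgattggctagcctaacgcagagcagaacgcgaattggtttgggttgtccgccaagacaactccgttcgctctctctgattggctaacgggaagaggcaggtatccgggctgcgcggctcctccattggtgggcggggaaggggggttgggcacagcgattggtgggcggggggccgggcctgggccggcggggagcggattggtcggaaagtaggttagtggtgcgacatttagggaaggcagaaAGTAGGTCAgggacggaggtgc
Per1: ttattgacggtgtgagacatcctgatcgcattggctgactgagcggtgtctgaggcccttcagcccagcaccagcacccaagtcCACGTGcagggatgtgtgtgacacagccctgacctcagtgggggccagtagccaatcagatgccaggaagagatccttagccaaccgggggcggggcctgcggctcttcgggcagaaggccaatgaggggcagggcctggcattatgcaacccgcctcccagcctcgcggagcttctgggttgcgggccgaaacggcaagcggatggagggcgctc
Cry1: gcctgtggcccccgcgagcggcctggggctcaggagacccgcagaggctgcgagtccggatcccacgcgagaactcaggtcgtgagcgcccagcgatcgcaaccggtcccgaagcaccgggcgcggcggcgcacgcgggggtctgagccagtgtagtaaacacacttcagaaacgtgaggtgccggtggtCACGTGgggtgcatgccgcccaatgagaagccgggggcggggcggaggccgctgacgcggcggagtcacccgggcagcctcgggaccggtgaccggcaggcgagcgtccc
Per3: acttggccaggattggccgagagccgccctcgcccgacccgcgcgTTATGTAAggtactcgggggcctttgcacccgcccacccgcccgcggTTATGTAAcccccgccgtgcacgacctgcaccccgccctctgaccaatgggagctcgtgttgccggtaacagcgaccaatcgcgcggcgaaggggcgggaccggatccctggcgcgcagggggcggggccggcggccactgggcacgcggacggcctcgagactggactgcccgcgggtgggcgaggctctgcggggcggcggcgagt

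Distances are from the annotated start of the window shown, which need not be the gene start given further below. Arntl had 1 ROR element core, 28 bases after that start. Per1 had 1 E-box, 166 bases before the start of its window, and Cry1 had 1 E-box, 60 bases before that of its own. The other window of Arntl and that of Per1, at other annotated starts, held none of these letters. Per3 had 2 D-boxes, 205 and 158 bases before its start. The windows of Clock, Cry2, Nr1d1, Nr1d2 and Dbp held none of these letters, which says nothing of sites outside the windows. A match is a string of letters and not a measured binding site.

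Expression was deposited as FPKM, which scales fragments to transcript length and library size, so levels can be set beside each other per length. FPKM are not counts, and absolute depth is unknown. Steps between the lowest values put the relative depths at 0.92 to 1.36 times that of estrus replicate 1. Of 13920 tested genes, 17.2% were higher and 14.0% lower in estrus by limma on log2(FPKM + 1) at a Benjamini-Hochberg adjusted p under 0.05. In markers of cell types, 8 of 10 tested luminal epithelium genes rose and none fell, and their summed level was 3284 to 3801 FPKM in estrus and 890.7 to 1219 FPKM in diestrus. Of 8 tested endothelium markers 7 fell, with sums of 131 to 170 FPKM in estrus and 227 to 533 FPKM in diestrus. In stroma 4 of 10 fell and none rose, in smooth muscle 1 of 8 rose and 1 fell, in glands 1 of 5 tested fell, in macrophages 2 of 6 fell, and in lymphocytes the 1 gene tested of 6 fell. No marker with a row was at 0 in every library. The part of cell makeup in the clock results was not tested, and in bulk RNA fewer cells of a type and less RNA per cell cannot be told apart.

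Per1, Per3 and Cry2 of the negative arm, the REV-ERB gene Nr1d1 and the output gene Dbp fell in estrus, and none of the 10 members rose. The activators Arntl and Clock did not pass, nor did Per2, Cry1 and Nr1d2. The largest falls were those of Nr1d1 and Dbp, whose diestrus means were 3.19 and 3.28 times their estrus means. All 10 members passed the filter on low values, and 5 of 10 fell, where 14.0% of tested genes were lower, 17.2% higher and 31.1% called in either direction. Their median log2 fold change was -0.70, estrus minus diestrus, against 0.048 for all tested genes. In 4 members (Per1, Per3, Cry2 and Nr1d1) every estrus library lay below every diestrus library, which held for 18.7% of tested genes. No member had all estrus libraries above diestrus, which held for 21.9% of tested genes. In either direction the 4 of 10 members stand close to the background of 40.6%, so the absence of overlap as such does not set the members apart.

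**Figure D1:**
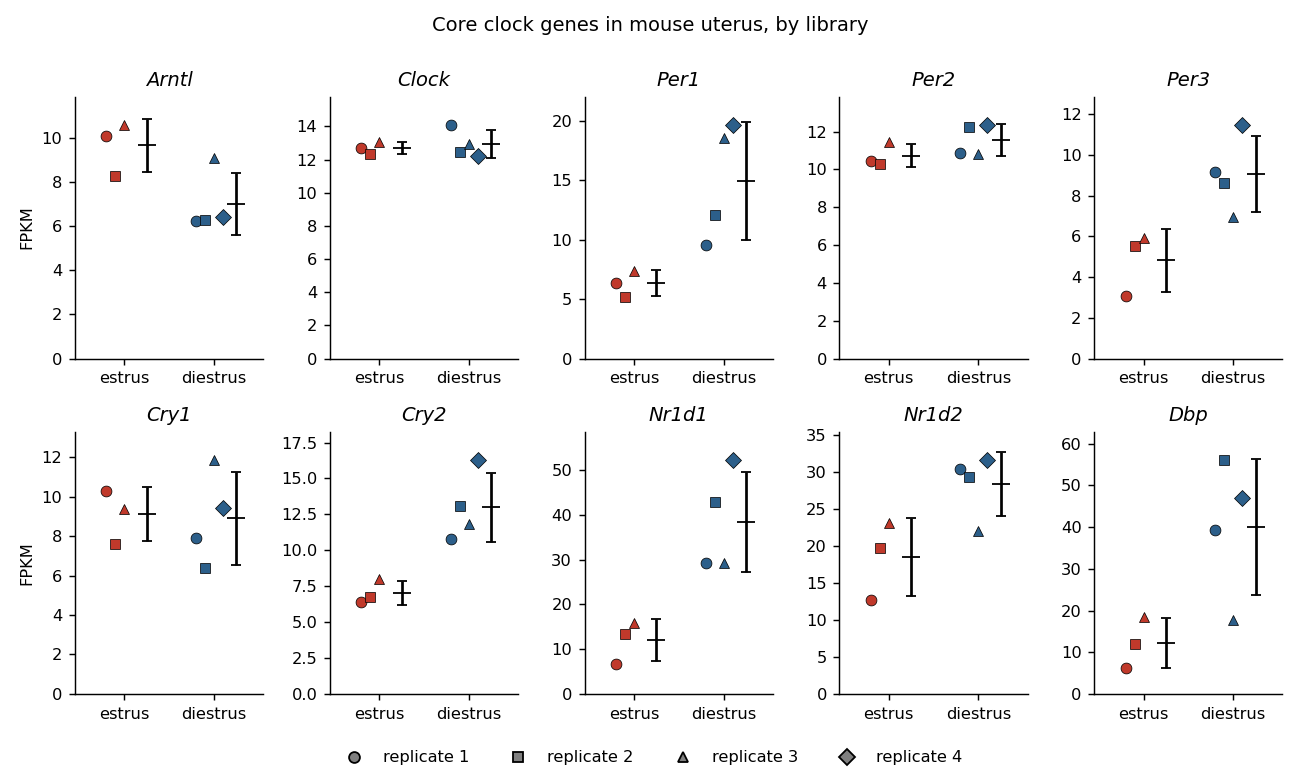
FPKM of each core clock gene on a linear axis that starts at 0, with 1 point per library, estrus (red) left of diestrus (blue), marker shapes for the replicate numbers, and the mean with SD beside each group. Per1, Per3, Cry2 and Nr1d1 have all estrus points below all diestrus points, Clock and Per2 lie level, and diestrus replicate 3 (triangle) stands with the estrus points for Arntl and Dbp.

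In the positive arm, Arntl (GRCm38 chromosome 7, 113207465 to 113314126, plus strand) had 10.1, 8.30 and 10.6 FPKM in estrus replicates 1 to 3, against 6.27, 6.28, 9.13 and 6.41 FPKM in diestrus replicates 1 to 4. The groups overlapped only through diestrus replicate 3, which lay above estrus replicate 2. Its log2 fold change was 0.42 (SE 0.17), and the limma adjusted p of 0.0862 did not pass. Without diestrus replicate 3 the log2 fold change was 0.54 and the adjusted p was 0.0383. Arntl passed in none of the 10 other settings and with no other library left out, where the adjusted p was up to 0.196. Clock, the histone acetyltransferase partner of BMAL1 (chromosome 5, 76209868 to 76304792, minus strand), averaged 12.7 ± 0.37 FPKM in estrus (SD, n = 3) and 12.9 ± 0.84 FPKM in diestrus (SD, n = 4). Its log2 fold change was -0.02 with an SE of 0.11, and the adjusted p was 0.884. Clock also had the smallest spread of the 10 within estrus, with a highest library 1.06 times the lowest.

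Of the 3 period genes of the negative arm, Per1 and Per3 fell and Per2 did not pass. Per1 (chromosome 11, 69095217 to 69109960, plus strand), which is induced by acute signals as well as by the clock, had 6.40, 5.19 and 7.39 FPKM in estrus, against 9.53, 12.1, 18.6 and 19.7 FPKM in diestrus. The groups did not overlap, and diestrus replicates 3 and 4 stood well above diestrus replicates 1 and 2. Per1 fell by 1.08 on the log2 scale (SE 0.26, limma adjusted p = 0.0196), with adjusted p values of 0.0547 without estrus replicate 1 and 0.0871 without estrus replicate 2. Per3 (chromosome 4, 151003652 to 151044665, minus strand), the period gene that mice can lack with little change in rhythm, had 3.05, 5.53 and 5.92 FPKM in estrus, against 9.15, 8.61, 6.96 and 11.5 FPKM in diestrus. The groups lay apart, with estrus replicate 3 and diestrus replicate 3 nearest to each other. Per3 fell by 0.81 (SE 0.23, adjusted p = 0.0355). This call held without estrus replicate 3 or diestrus replicate 3, but the adjusted p was 0.0535 to 0.0889 when any other library was left out, estrus replicate 1 giving the highest value. With no filter on low values it was 0.0625.

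Per2 (chromosome 1, 91415982 to 91459324, minus strand), whose protein is the scaffold of the repressor complex, had 10.5, 10.3 and 11.4 FPKM in estrus, against 10.9, 12.2, 10.8 and 12.4 FPKM in diestrus. The groups overlapped and all 7 libraries lay close together. Its log2 fold change was -0.10 (SE 0.11, limma adjusted p = 0.514). The ratio of Per1 to Per2 was 0.505 to 0.647 in estrus and 0.876 to 1.72 in diestrus, with no overlap. With Per2 nearly level, this ratio largely restates the Per1 values, whose groups did not overlap either.

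Of the cryptochromes, the direct inhibitors of CLOCK and BMAL1, Cry2 fell and Cry1 did not pass. Cry2 (chromosome 2, 92403646 to 92434043, minus strand) had 6.38, 6.75 and 8.002 FPKM in estrus, against 10.8, 13.1, 11.8 and 16.3 FPKM in diestrus. Every diestrus library was above every estrus library, and the log2 fold change was -0.79 (SE 0.16, limma adjusted p = 0.0114). The adjusted p was 0.0583 without estrus replicate 2. Cry1 (chromosome 10, 85131700 to 85185064, minus strand) had 10.3, 7.61 and 9.40 FPKM in estrus, against 7.91, 6.37, 11.9 and 9.44 FPKM in diestrus. Both the highest and the lowest Cry1 values were in diestrus, and the log2 fold change was 0.05 (SE 0.21, adjusted p = 0.866). Its sign turned under several alternatives, so no direction is given. Cry2 exceeded Cry1 in diestrus replicates 1, 2 and 4, with ratios of 1.36, 2.06 and 1.72, and the ratio was 0.997 in diestrus replicate 3. In estrus Cry2 was below Cry1 in all 3 libraries, at ratios of 0.619, 0.887 and 0.851.

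The REV-ERB genes form the stabilizing loop that keeps Arntl in rhythm. Nr1d1 (chromosome 11, 98767932 to 98775333, minus strand) had 6.73, 13.4 and 15.96 FPKM in estrus, against 29.3, 42.8, 29.2 and 52.3 FPKM in diestrus. The groups were far apart, and estrus replicate 1 was the lowest library. Nr1d1 averaged 12.0 ± 4.77 FPKM in estrus (SD, n = 3) and 38.4 ± 11.2 FPKM in diestrus (SD, n = 4), and it fell by 1.63 on the log2 scale (SE 0.32, limma adjusted p = 0.00932). It was the only member that passed in each of the 10 other settings and with each of the 7 libraries left out, where the adjusted p reached at most 0.0351. In the GENCODE M21 annotation, 263 exonic bases of Nr1d1 (8.55%) lie opposite exons of the thyroid hormone receptor gene Thra. The kit label names no strand protocol, so reads in the shared bases cannot be told apart. Thra fell too, by 0.63 (SE 0.16, adjusted p = 0.0223), with 29.2, 31.6 and 38.6 FPKM in estrus, against 45.6, 55.6, 45.2 and 61.7 FPKM in diestrus.

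Nr1d2 (chromosome 14, 18204054 to 18239127, minus strand) had 12.7, 19.8 and 23.0 FPKM in estrus, against 30.4, 29.3, 22.0 and 31.6 FPKM in diestrus. Estrus replicate 3 lay above diestrus replicate 3, so the groups overlapped. Its log2 fold change was -0.61 (SE 0.22), and the limma adjusted p of 0.0643 did not pass. The adjusted p was 0.0463 without estrus replicate 3, 0.0452 with quantile normalization and 0.0356 with library weights. Nr1d2 thus passed with 1 of 7 libraries left out and in 2 of 10 other settings. Elsewhere it missed the threshold, with adjusted p values up to 0.170 with a library left out and 0.179 in the other settings.

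Dbp (chromosome 7, 45705088 to 45710203, plus strand), a PAR-domain leucine zipper activator with 1 of the strongest daily rhythms in mouse tissues, had 6.33, 12.0 and 18.4 FPKM in estrus, against 39.3, 56.1, 17.8 and 47.0 FPKM in diestrus. Diestrus replicate 3 lay just under estrus replicate 3, while the other 3 diestrus libraries stood far above all estrus libraries. Dbp fell by 1.63 (SE 0.44, limma adjusted p = 0.0291). The adjusted p was 0.0905 and 0.0907 without estrus replicates 1 and 2, 0.0633 and 0.0723 without diestrus replicates 2 and 4, and 0.0531 with no filter on low values. Leaving out diestrus replicate 3 gave -1.97 and an adjusted p of 0.0132. Of the exonic bases of Dbp, 18.0% lie opposite exons of the sphingosine kinase gene Sphk2, which was at 0.27 on the log2 scale (SE 0.14, adjusted p = 0.178).

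Each member was also tested alone by a two-sided exact permutation test over the 35 ways to regroup the 7 libraries, where the smallest p that can be reached is 0.0286. Per3, Cry2 and Nr1d1 reached that exact p of 0.0286 unadjusted, and Per1 had 0.0571. Arntl, Nr1d2 and Dbp each had an exact permutation p of 0.0857. Per2, Clock and Cry1 had exact permutation p values of 0.229, 0.743 and 0.857.

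Leaving out single libraries changed both the number of members that fell and the share of all tested genes that were lower. Without estrus replicates 1, 2 and 3, the members that fell numbered 2, 1 and 6, where 8.04%, 4.20% and 10.4% of tested genes were lower. Without diestrus replicates 1 to 4 they numbered 4, 3, 5 and 3, where 17.7%, 11.0%, 10.4% and 8.31% of tested genes were lower. The 1 member left without estrus replicate 2 was Nr1d1. Arntl was the 1 member that rose in any of these fits, without diestrus replicate 3, where 12.6% of tested genes were higher. In the other fits the share of higher genes was 11.1%, 6.20% and 13.9% without estrus replicates 1 to 3, and 20.8%, 12.8% and 10.4% without diestrus replicates 1, 2 and 4.

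**Figure D2:**
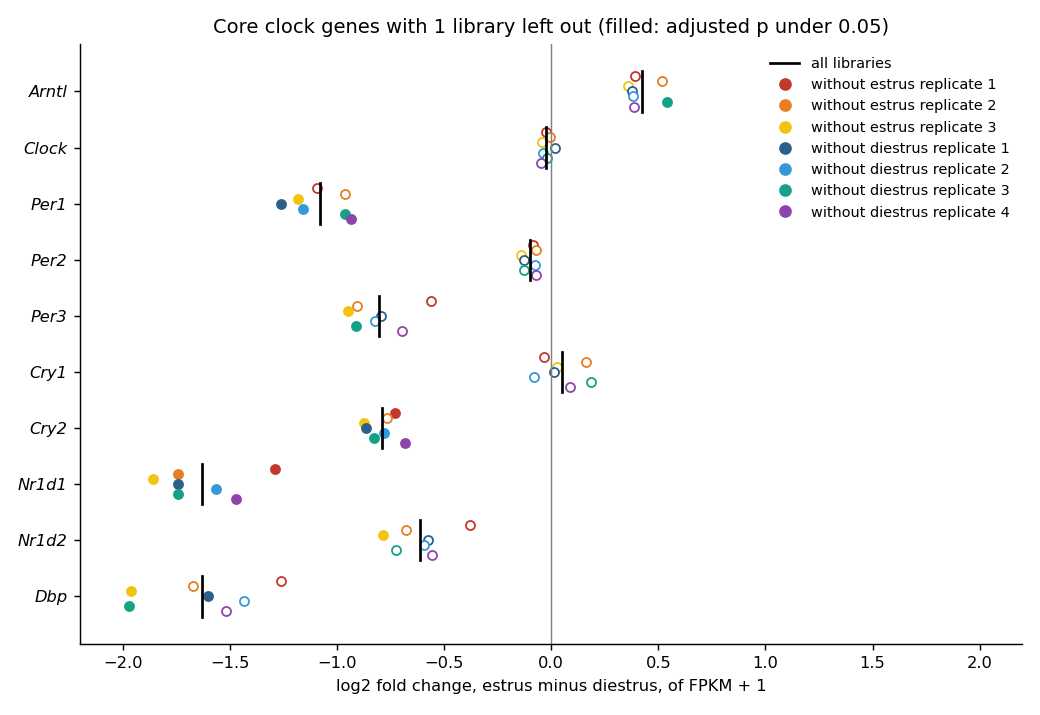
Log2 fold changes of the 10 core clock genes (x axis, estrus minus diestrus, of FPKM + 1) with all libraries (black bar) and with each of the 7 libraries left out (points, filled where the limma adjusted p was under 0.05). Nr1d1 has 7 filled points between -1.86 and -1.29, Dbp has 3 and Per3 has 2.

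The members can be ordered by mean level within each stage. In diestrus Dbp, Nr1d1 and Nr1d2 led, with means of 40.1, 38.4 and 28.3 FPKM. Their ranges overlapped each other in turn, while the lowest Nr1d2 value of 22.0 FPKM was above the highest Per1 value of 19.7 FPKM. Arntl was the lowest member in diestrus, with a mean of 7.02 FPKM. In estrus Nr1d2 led with a mean of 18.5 FPKM, and Per3 was lowest with 4.83 FPKM. Each estrus neighbour in the order overlapped the next in range. Within libraries, Nr1d2 was above Clock, Per2 above Arntl and Cry1 above Cry2 in each estrus library, in places by little. The other neighbours changed places between libraries.

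Within estrus the output gene, the REV-ERB genes and Per3 had the widest spread of the members. The highest estrus library was 2.90 times the lowest for Dbp, 2.37 times for Nr1d1, 1.94 times for Per3 and 1.82 times for Nr1d2. In all 4 of these genes estrus replicate 1 was the lowest estrus library. It was the farthest estrus library, in either direction, for these 4 of the 10 members and for 38.5% of tested genes, so the members' share is near the background. In diestrus the highest library was 3.15 times the lowest for Dbp, 2.07 times for Per1, 1.86 times for Cry1 and 1.79 times for Nr1d1. Per3, Cry2, Arntl and Nr1d2 followed at 1.65, 1.51, 1.46 and 1.44 times. The median range within diestrus was 0.60 on the log2 scale for the 10 members and 0.53 for all tested genes.

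Diestrus replicate 3 differed from the other diestrus libraries in both directions, as each diestrus library did for at least 1 member each way. It held the highest Arntl and Cry1 values and the lowest Per2, Per3, Nr1d1, Nr1d2 and Dbp values of the 4, although its Nr1d1 value differed little from that of diestrus replicate 1. It was the farthest diestrus library for 4 of the 10 members (Arntl, Cry1, Nr1d2 and Dbp), a place it took in 18.8% of tested genes. Diestrus replicate 4 was the farthest for as many, 4 of 10 (Per2, Per3, Cry2 and Nr1d1), and for 17.8% of tested genes, and it held the highest diestrus value for 6 of the 10 members. Diestrus replicate 3 lay within the estrus range for 5 members, against 2, 1 and 1 for diestrus replicates 1, 2 and 4. The lowest diestrus values were in replicates 1 to 4 for 3, 1, 5 and 1 of the 10 members. The share over all tested genes was not computed for the counts of highest and lowest values and of values within the estrus range. None of these counts is therefore read as particular to the members. The ratio of Dbp to Arntl was 0.626, 1.44 and 1.73 in estrus replicates 1 to 3, against 6.27, 8.93, 1.95 and 7.33 in diestrus replicates 1 to 4. Diestrus replicate 3 thus stood next to the estrus libraries on this ratio, while for Nr1d1 to Arntl it had 3.20, against 0.665 to 1.62 in estrus and 4.68 to 8.16 in the other diestrus libraries. Per1 was not low in this library, at 18.6 FPKM.

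**Figure D3:**
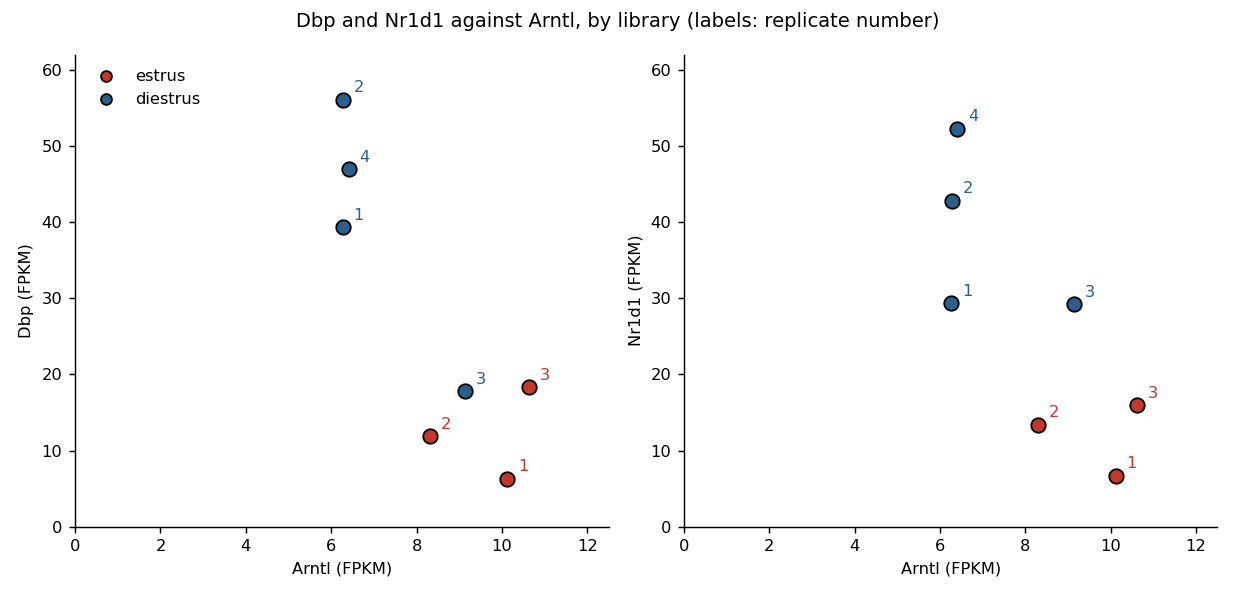
Dbp (left) and Nr1d1 (right) in FPKM on the y axis against Arntl in FPKM on the x axis, with 1 point per library, estrus red and diestrus blue, numbered by replicate. Diestrus replicates 1, 2 and 4 lie at low Arntl (6.27 to 6.41 FPKM) and high Dbp, and diestrus replicate 3 lies among the estrus libraries for Dbp but not for Nr1d1.

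The other genes of the clock were read from 4 lists with 24 genes, all with a row and all tested, of which 4 rose and 7 fell against the same background of 17.2% and 14.0%. Their median log2 fold change was -0.43. Among the partners of the positive arm, Rora and Rorb, nuclear receptors that activate Arntl through the element bound by REV-ERB, fell by 0.74 and 0.78 (limma adjusted p = 0.0420 and 0.0277). Both stayed under 5 FPKM in every library, and Rorb had groups apart while those of Rora overlapped. These calls were fragile. With quantile normalization the adjusted p values were 0.0733 for Rora and 0.0664 for Rorb, and with no filter that of Rora was 0.0735. Both also missed the threshold without estrus replicate 1, estrus replicate 2, diestrus replicate 3 or diestrus replicate 4, and Rora without diestrus replicate 2, with adjusted p values up to 0.145 for Rora and 0.114 for Rorb.

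Npas2, a paralog of Clock that also pairs with BMAL1, had 4.13, 3.53 and 4.89 FPKM in estrus, against 2.99, 3.33, 19.0 and 6.69 FPKM in diestrus. Diestrus replicate 3 alone held a value of that size, 4.38 times the mean of the other diestrus libraries. Its log2 fold change was -0.48 (SE 0.53, limma adjusted p = 0.506), and 0.02 without diestrus replicate 3.

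Of the repressors and output factors, Bhlhe40 and Bhlhe41, E-box binding repressors also known as DEC1 and DEC2, were the clock genes that rose most. Bhlhe40 had 122, 153 and 125 FPKM in estrus, against 29.3, 43.1, 20.4 and 21.4 FPKM in diestrus. The groups were far apart, and Bhlhe40 rose by 2.24 (SE 0.26, limma adjusted p = 0.00185). Bhlhe41 had 3.73, 2.96 and 4.53 FPKM in estrus, against 1.04, 2.33, 0.624 and 1.07 FPKM in diestrus, and rose by 1.11 (adjusted p = 0.0170). Without estrus replicate 1 or 3 its adjusted p was 0.0525 and 0.0517. Bhlhe40 also had the highest level of the 24 genes in every estrus library.

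Hlf and Tef are the other PAR-domain factors beside Dbp. Hlf had 1.08, 1.72 and 1.72 FPKM in estrus, against 6.03, 8.07, 4.73 and 7.79 FPKM in diestrus, and it fell by 1.599 (SE 0.20, limma adjusted p = 0.00251). Tef had 15.8, 19.7 and 25.5 FPKM in estrus, against 40.6, 30.3, 24.0 and 38.5 FPKM in diestrus, and did not pass (log2 fold change -0.68, adjusted p = 0.0519). Its adjusted p was 0.0467 with median-ratio scaling, 0.0395 with quantile normalization, 0.0122 with library weights, 0.0425 without estrus replicate 3 and 0.0323 without diestrus replicate 3. Tef missed the threshold in every other fit. Its highest adjusted p values were 0.176 with replicate number as a block and 0.158 without estrus replicate 1. In all 3 PAR-domain genes diestrus replicate 3 was the lowest diestrus library. Ciart, a repressor of CLOCK and BMAL1, did not pass either (-0.61 on the log2 scale, adjusted p = 0.0915) and had 0.607 FPKM in diestrus replicate 3, against 1.51 to 2.22 FPKM in the other diestrus libraries. Without that library Ciart was at -0.82 with an adjusted p of 0.0175. In each other setting where Ciart was tested it missed the threshold, with an adjusted p of 0.228 without estrus replicate 1. Nfil3, which represses the D-box genes that DBP activates, had 13.9, 10.3 and 12.8 FPKM in estrus, against 10.6, 7.01, 51.9 and 36.1 FPKM in diestrus, with an adjusted p of 0.459. Diestrus replicates 3 and 4, where Nfil3 was high, also had the high sums of gland markers, 13849 and 11288 FPKM, against 207 and 373 FPKM in diestrus replicates 1 and 2 and 108 to 154 FPKM in estrus. Those sums were carried by Prss29 (7952 and 6335 FPKM) and Spink3 (5835 and 4900 FPKM). The gland genes Foxa2, Cxcl15 and Aldh1a1 of the same list were lower in diestrus replicates 3 and 4 than in 1 and 2, with Foxa2 at 8.53 and 7.41 FPKM, against 12.2 and 10.3 FPKM. Cxcl15 did not pass the filter on low values. Sox9, also of that list, was higher in diestrus replicates 3 and 4, at 42.2 and 31.0 FPKM, against 22.7 and 7.42 FPKM. The part of gland RNA in the Nfil3 values was not tested.

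**Figure D4:**
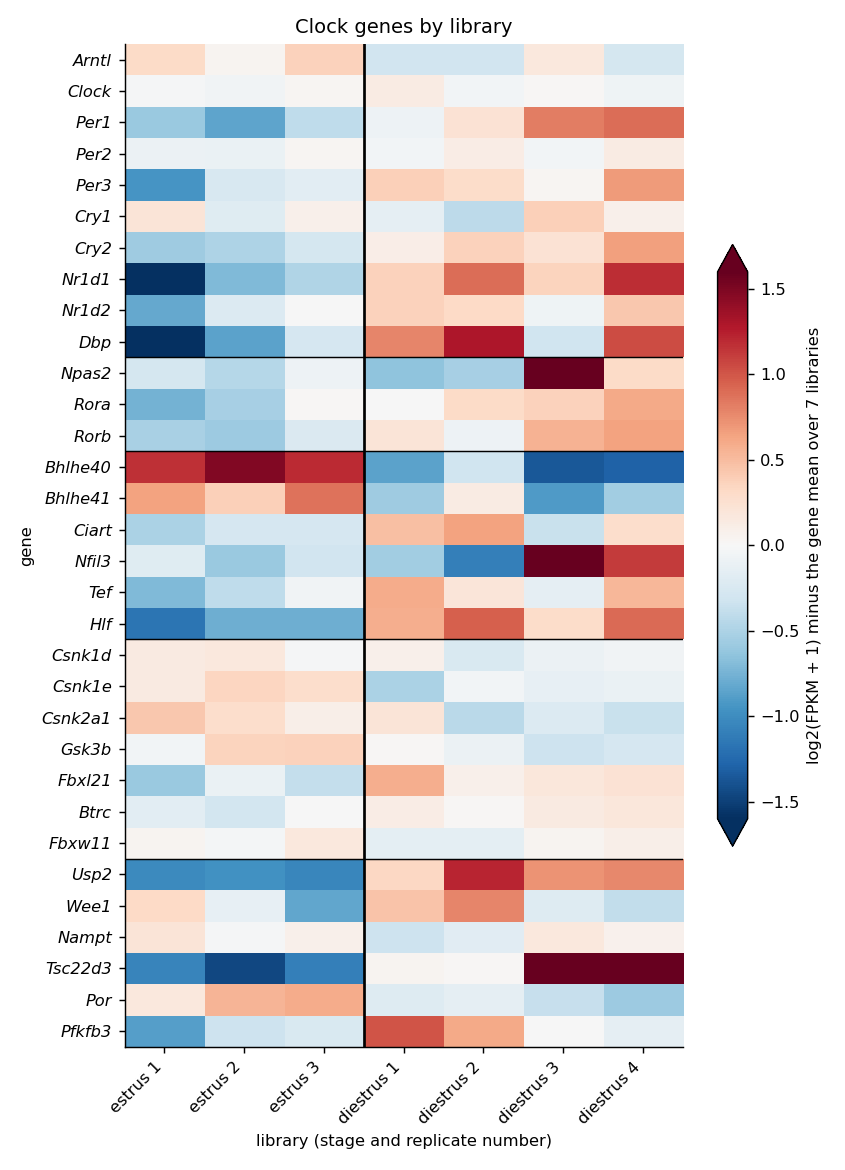
Each gene's log2(FPKM + 1) minus its mean over the 7 libraries (colour, saturated at the ends of the scale), for the 10 core clock genes and other clock genes of the 4 lists, with estrus libraries left of diestrus libraries. Diestrus replicate 3 is the library with the highest Npas2 and Nfil3 and the lowest diestrus Dbp, Tef and Hlf.

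Of 8 kinases and ubiquitin ligase components that set the life of PER and CRY proteins, 1 rose and 1 fell. Csnk1e, casein kinase 1 epsilon, which phosphorylates PER, had 41.7, 48.1 and 45.9 FPKM in estrus, against 26.2, 36.4, 34.3 and 34.8 FPKM in diestrus, and rose by 0.45 (limma adjusted p = 0.0428). That call was lost with no filter (0.0512), median-ratio scaling (0.0611) and quantile normalization (0.166), and with any library but diestrus replicate 1 left out (0.0510 to 0.160). Fbxl21 fell by 0.63 (adjusted p = 0.0363), at levels under 2 FPKM in every library, and its adjusted p was 0.103 with quantile normalization and 0.0585 to 0.119 without any 1 estrus library, diestrus replicate 3 or diestrus replicate 4. Csnk1d, another PER kinase, was at 0.18 on the log2 scale (SE 0.12, adjusted p = 0.285).

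Among 6 genes known as clock-controlled in mouse tissues, Usp2 and Tsc22d3 fell and Por rose. Usp2, a deubiquitinase, had 2.41, 2.53 and 2.37 FPKM in estrus, against 7.68, 15.1, 10.4 and 10.8 FPKM in diestrus, and fell by 1.77 (SE 0.20, limma adjusted p = 0.00194). The estrus libraries were nearly level and far below those of diestrus. Tsc22d3, which glucocorticoids and progesterone also induce, had 20.8, 15.6 and 20.4 FPKM in estrus, against 46.0, 44.8, 137 and 172 FPKM in diestrus, and fell by 2.10 (adjusted p = 0.0188), with adjusted p values of 0.0507 and 0.0797 without estrus replicates 1 and 2. As with Per1, its values in diestrus replicates 3 and 4 were above those in replicates 1 and 2. Por, cytochrome P450 oxidoreductase, rose by 0.76 (adjusted p = 0.0123), with 0.0645 after quantile normalization and 0.0662 without estrus replicate 2. Wee1, Nampt and Pfkfb3 did not pass, with adjusted p values of 0.445, 0.426 and 0.0667.

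**Figure D5:**
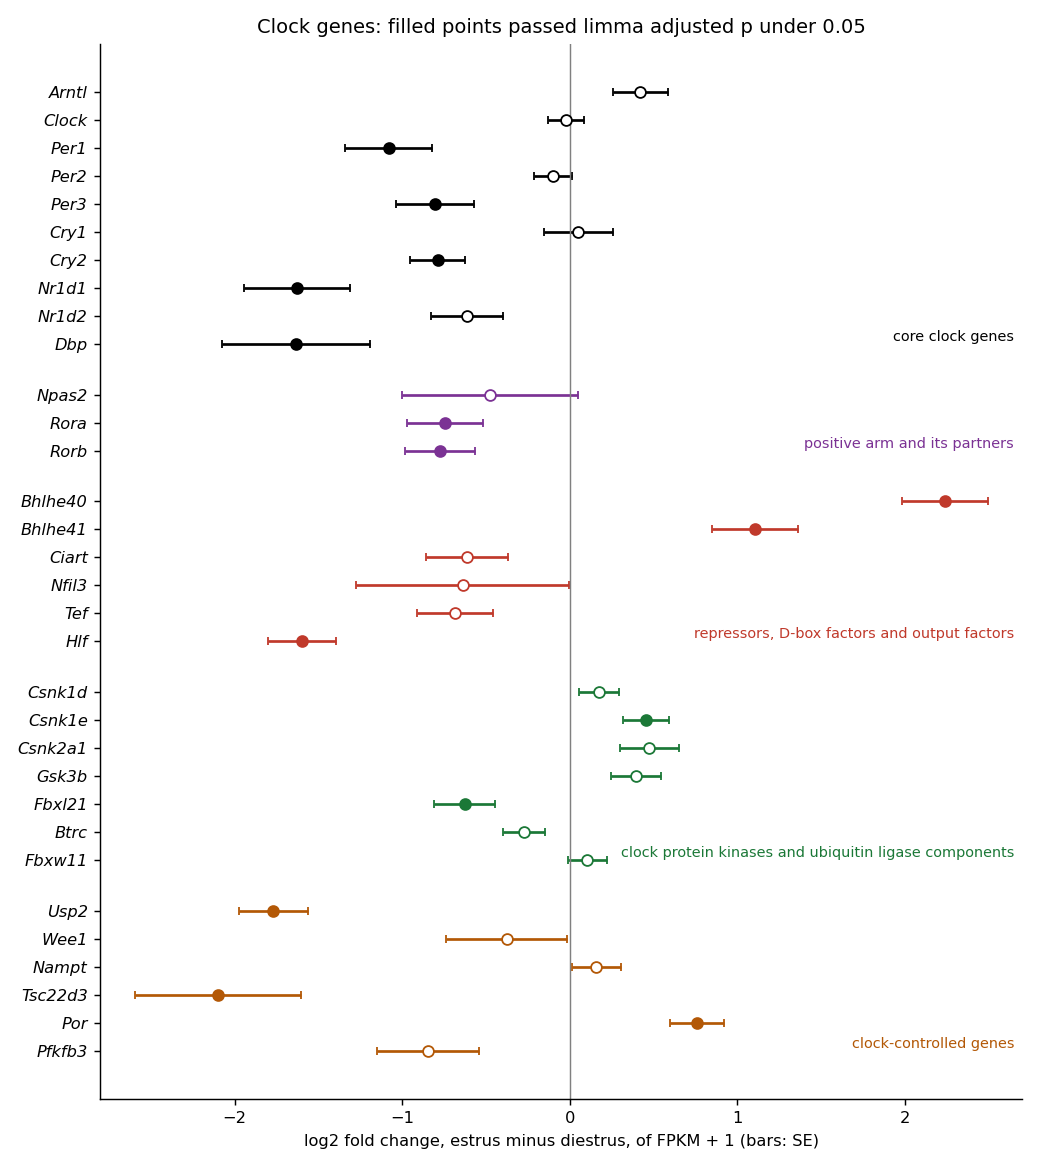
Log2 fold changes with SE (x axis, estrus minus diestrus, of FPKM + 1) of the 10 core clock genes and other clock genes by list, filled where the limma adjusted p was under 0.05. Nr1d1, Dbp, Hlf, Usp2 and Tsc22d3 lie furthest to the left, between -2.10 and -1.599, and Bhlhe40 lies at 2.24.

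Genes with the pattern most like that of Arntl, Dbp and Per2 were taken from 10057 others with a mean of at least 5 FPKM, by the root mean square distance between log2(FPKM + 1) values, each centred on its mean over the 7 libraries. The nearest to Dbp was Rasd2, a small GTPase of the Ras family, at 0.25, where the spread of Dbp itself about its mean was 1.00. Rasd2 had 7.31, 11.7 and 14.8 FPKM in estrus, against 36.2, 43.7, 16.7 and 29.6 FPKM in diestrus. The angiopoietin-like gene Angptl2, the glutathione transferase Gstt1, phospholamban (Pln) and Nr1d1 followed at 0.28, 0.30, 0.34 and 0.35. Diestrus replicate 3 was the lowest diestrus library for Rasd2, Angptl2, Gstt1, Pln and Nr1d1, at 6.22 FPKM for Pln against 15.5 to 28.3 FPKM. That library was among the 7 by which these genes were picked, so this trait shared with Dbp follows from the choice. Nearest to Arntl were Edem3, the tight junction gene Cgn, Pip4k2c, Cmtr2 and Camsap3, at 0.10 to 0.11, where the spread of Arntl was 0.27. Nearest to Per2 were Dnlz, Zbtb14, Usf2, Nxn and Zbed3, at 0.034 to 0.045, where the spread of Per2 was 0.090. None of the 5 nearest genes to Arntl or Per2 was a clock gene of the lists.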

How the data were processed

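RNA had been purified on RNeasy columns with DNase treatment and made into Illumina TruSeq RNA libraries, per the labels' protocols. The authors deposited FPKM, 1 column per library. TopHat2 2.0.4 and mm10 are named, with no role, per the submitters' processing notes. What program made the FPKM is not given in the sources used here. Sample descriptions gave the column for each library, with 0 left over.

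Rows with at least 1 FPKM in at least 3 libraries were tested on log2(FPKM + 1) by limma 3.58.1, run in R 4.3.3, with the prior variance following mean level and Benjamini-Hochberg adjustment of the two-sided p-values over all 13920 tested genes (threshold 0.05). Each fold change is estrus minus diestrus on that scale, which understates the change of low genes. Relative depth was the most frequent ratio of values under 0.3 FPKM, in log2 bins of 0.02. Named genes were the 10 members, other clock genes from 4 lists with 24 genes, some of which are counted but not reported here, and the 5 genes nearest to Arntl, Dbp and Per2, leaving out predicted genes and accession rows. Thra and Sphk2 were added for their overlap, after their values were seen, and the comparison of diestrus replicate 3 was also made after the data were seen. The members and lists were chosen with earlier results of these data known. The alternatives were pseudocounts of 0.1 and 5, median-ratio scaling, library weights, quantile normalization, a filter at a mean of 5 FPKM or none, robust moderation, a constant prior variance, replicate number as a block, and each library left out. The fit was tested on simulated data. Gene positions are from GENCODE M21 (GRCm38, or mm10), and matplotlib 3.10.9 under Python 3.11.15 drew the figures.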

Additional observations from a re-analysis of the deposited data

Results flagged for a closer look

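Arntl in diestrus replicate 3, at 9.13 FPKM, stood apart from the other 3 diestrus libraries (6.27, 6.28 and 6.41 FPKM). On log2(FPKM + 1), its gap to the nearest of them was 0.941 of the whole range, above Dixon's 95% critical value for 4 samples. It was the 1 gene so marked among 48 examined (the members, the other clock genes and the nearest genes), and chance marks about 1 in 20 such groups.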

How the results depend on the processing

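The calls of Nr1d1 (all settings), Per1 and Cry2 (all settings but leaving out libraries) held. Settings that keep every library: 3 members fell with no filter, where more genes share the adjustment, since Per3 (log2 -0.81, adjusted p = 0.0625) and Dbp (-1.63, 0.0531) missed the threshold. With no filter 8.58% of tested genes were lower. Nr1d2 passed with quantile normalization (-0.73, 0.0452) and library weights (-0.51, 0.0356), and Cry1 was at -0.19 with library weights. The exact permutation p of Per3 was 0.0571 with a pseudocount of 5. Of the other clock genes, 2 rose and 4 fell with quantile normalization, 7 rose with library weights, and 3 fell with a mean of at least 5 FPKM, where fewer genes were tested. Over all genes, quantile normalization called 25.8%, with 1684 genes higher and 13.8% lower. Library weights called 58.3%, with 4318 genes higher and 3795 lower, so the 7 rises stand beside many more calls over all genes. A mean of at least 5 FPKM called 1181 genes lower, or 11.1% of those tested. Csnk1d and Fbxw11 turned to -0.073 and -0.070 with quantile normalization, and Fbxw11 to -0.0086 with library weights. The cause was not tested for the scaling and weights.

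Replicate numbers gave no clear pairing of the libraries: same-numbered deviations correlated at 0.198, 0.0243 and 0.169. Among the estrus libraries only estrus replicate 1 correlated best with its own number. From the diestrus side, diestrus replicates 2 and 3 did so, diestrus replicate 2 by little (0.0243, against 0.0241 with estrus replicate 1). These values do not settle whether the libraries were paired. The replicate block, which takes diestrus replicate 4 out of the contrast, called 1299 genes higher and 982 lower, the latter 7.05% of tested genes. Of the clock genes, 3 members fell (Per3 -0.70, adjusted p = 0.110, and Dbp -1.52, adjusted p = 0.0900, did not pass), and 1 other gene rose and 4 fell.

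With single libraries left out, 1 to 6 members fell and 0 to 1 rose, 2 to 7 other clock genes fell and 2 to 5 rose, and 579 to 2445 genes in all were lower and 854 to 2866 higher. The fewest members fell without estrus replicate 2 (1) and estrus replicate 1 (2), and the 1 that rose was Arntl without diestrus replicate 3. Log2 fold changes ran from 0.36 to 0.54 for Arntl, -0.047 to 0.017 for Clock, -0.76 to 0.016 for Npas2, -1.26 to -0.94 for Per1, -0.95 to -0.56 for Per3, -0.080 to 0.19 for Cry1, -0.87 to -0.68 for Cry2, -0.78 to -0.38 for Nr1d2 and -1.97 to -1.26 for Dbp. Clock was at 0.017 without diestrus replicate 1, Cry1 at -0.03 without estrus replicate 1 and -0.080 without diestrus replicate 2, and Npas2 at 0.016 without diestrus replicate 3. Absolute depth is unknown, so counting error could not be set beside these values.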
